A study of Mus musculus with 18 samples.

Results

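Transcripts annotated as retained introns were described in mouse cerebellum that lacked Gtpbp1 or Gtpbp2. A transcript was taken when its annotation class in the deposited tables was retained_intron and its mean level over the 9 RNA libraries was at least 1 TPM, with transcripts of Srsf genes left out. TPM is a level corrected for transcript length and scaled to the same total in every library. Members were thus chosen by the mean TPM over all 9 libraries, so levels near that threshold are a description and were not tested. Of 138835 annotated transcripts 21199 carried the class, and 9871 of them in 5048 genes met the rule. Another 11307 stayed under 1 TPM and 21 belonged to Srsf genes.

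A retained intron is a stretch that most transcripts of the gene splice out and that stays in the annotated RNA. Such transcripts may wait in the nucleus, may be spliced later, or may reach the cytoplasm and be destroyed by nonsense-mediated decay, because the intron often brings an early stop codon. In neurons some are kept as a nuclear store, and kinases of SR splicing proteins such as the CLK family are known for regulated intron retention in their own transcripts. The class is an annotation term, and many of its transcripts are short fragments that hold a piece of an intron.

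The study asked what the loss of either of 2 related GTPases, thought to act on stalled ribosomes, does to the cerebellum of mice that already carry a tRNA defect. All mice were on the C57BL/6J background (B6J), which carries the n-Tr20 mutation of a nuclear arginine tRNA gene, were 3 weeks old and were of both sexes. Each library came from the cerebellum of 1 mouse. B6J mice were the controls. B6J.Gtpbp1-/- mice carried the tm1Ynim allele, a PGK-Neo insertion that lacks exon 4 and some of exon 3. B6J-Gtpbp2-/- mice carried nmf205, an ENU-induced point mutation described as a null allele. The genotypes are called B6J, Gtpbp1 mutants and Gtpbp2 mutants, with 3 poly(A)-selected, paired-end RNA libraries and 3 ribosome footprint libraries each. The labels put all RNA libraries in 1 batch and all footprint libraries in another, so batch and assay coincide and the genotypes share a batch. Sets of 3 values are in the order of replicates 1, 2 and 3.

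The RNA libraries held 49090501, 50301391 and 52114400 estimated counts in B6J, 44243134, 49294194 and 37794598 in Gtpbp1 mutants, and 46027009, 50878852 and 51979679 in Gtpbp2 mutants. These are counts that kallisto assigned to transcripts. Transcripts of 1 gene overlap, so kallisto shares ambiguous reads among them, and the deposited tables give no error for that assignment. A member's level is therefore an estimate whose error can exceed counting error. Share means the TPM of a member as a percentage of the summed TPM of all transcripts of its gene in that library.

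B6J replicates 1 and 3 stood apart from the other 7 libraries. Members listed at 0 numbered 800, 227 and 837 in B6J, 183, 233 and 219 in Gtpbp1 mutants, and 220, 131 and 161 in Gtpbp2 mutants. The same split ran through all transcripts: 68366, 81258 and 67151 were above 0 in B6J, against 80394 to 85627 in the 6 mutant libraries. Protein-coding transcripts with a mean of at least 1 TPM were at 0 in 1452, 434 and 1663 cases in B6J and in 325 to 557 cases in the mutant libraries. The total counts of the 3 B6J libraries are those given above, and why these 2 stood apart was not tested. For RNA, the counts of members and host genes called by edgeR or limma against B6J, and the counts of members with a higher mean, are also given with B6J replicate 2 as the only control, an alternative chosen after seeing the data, in which the lone library is assumed to vary like the mutant libraries.

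Other library properties also moved with genotype, and their part in the results was not tested. Mitochondrially encoded transcripts took 20.1%, 19.4% and 20.5% of TPM in B6J, 14.2%, 17.2% and 16.5% in Gtpbp1 mutants, and 17.4%, 16.7% and 16.1% in Gtpbp2 mutants, so every B6J value was above every mutant value. The median gap between annotated and effective transcript length, which follows fragment size, was 267, 275 and 268 bases in B6J, 298, 294 and 297 in Gtpbp1 mutants, and 268, 273 and 298 in Gtpbp2 mutants. Fragments were thus longer in all Gtpbp1 mutants and in Gtpbp2 replicate 3. Counts of the Y-linked gene Ddx3y were 0, 4663 and 26 in B6J, 5455, 6574 and 21 in Gtpbp1 mutants, and 21, 13 and 12 in Gtpbp2 mutants. By these counts B6J replicate 2 and Gtpbp1 replicates 1 and 2 were male and the other 6 female, so the B6J library with fewest transcripts at 0 was also the lone male control. Of the members, 7 belonged to Y-linked genes, Xist or Tsix, and 0 of these passed a test at an adjusted p of 0.05 in edgeR or limma.

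Marker genes placed the tissue as cerebellum and showed which marker sums differed. Summed TPM of 12 granule neuron markers, of which Cbln1 was the most abundant, was 4107, 4195 and 4206 in B6J, 2867, 2791 and 3198 in Gtpbp1 mutants, and 3011, 3198 and 2743 in Gtpbp2 mutants. For 10 endothelial and pericyte markers, led by Rgs5, it was 290, 289 and 291 in B6J, 422, 443 and 466 in Gtpbp1 mutants, and 337, 494 and 513 in Gtpbp2 mutants. The granule sum was lower, and the endothelial sum higher, in every mutant library than in every B6J library. Single genes did not all follow: granule Pax6, Fat2, Barhl1 and Reln and endothelial Tek, Rgs5, Vtn and Acta2 overlapped, and Zic2 ran from 129 to 143 TPM in B6J and from 138 to 166 in the mutants. Of microglia, single marker genes are given: C1qa had 18.1, 17.4 and 17.8 TPM in B6J, 56.4, 48.6 and 54.4 in Gtpbp1 mutants, and 44.9, 54.8 and 50.1 in Gtpbp2 mutants. Cx3cr1 ran from 7.16 to 7.60 TPM in B6J and from 15.1 to 18.0 in the mutants, and Csf1r from 11.5 to 13.3 and from 21.9 to 26.4. These 3, and also P2ry12, C1qb, C1qc and Trem2, were higher in every mutant library than in every B6J library, while Tmem119 and Aif1 overlapped. In bulk RNA, fewer cells of a type and less RNA per cell cannot be told apart, and the part of these shifts in the results below was not tested.

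The lists that follow overlapped between B6J and the mutants, apart from immediate early genes. Purkinje cell markers (10 genes, led by Pcp4) ran from 5634 to 6709 TPM in B6J and from 4887 to 6894 in the mutants. Astrocyte and Bergmann glia markers (10 genes, led by Sparcl1) ran from 3747 to 4147 TPM in B6J and from 3823 to 4281 in the mutants. Within this list, however, Gfap was higher in every mutant (232 to 371 TPM against 99.8 to 114 in B6J). Slc1a3 (681 to 825 TPM against 834 to 1026) and Hopx (128.1 to 198.6 TPM against 214.0 to 256.9) were lower in every mutant. Sums of oligodendrocyte markers (10 genes, led by Mbp) ran from 8514 to 9829 TPM in B6J and from 7010 to 11710 in the mutants. Choroid plexus markers (6 genes, led by Ttr) varied from 476 to 3369 TPM among B6J mice and from 151 to 3762 among mutants. Blood markers (5 genes, led by Hbb-bs) ran from 3303 to 5880 TPM in B6J and from 1497 to 9202 in the mutants. Markers of meninges, bone and muscle (10 genes, led by Dcn, 3 of them under 1 TPM) summed to between 77.0 and 102 TPM in B6J and between 80.7 and 133 in the mutants. Hippocampal and cortical markers (6 genes, led by Wfs1, 2 of them under 1 TPM) stayed between 45.8 and 57.6 TPM in all 9 libraries. Immediate early genes (10, led by Fos) summed to 196, 325 and 263 TPM in B6J, 330, 331 and 534 in Gtpbp1 mutants, and 375, 650 and 357 in Gtpbp2 mutants. This sum was higher in every mutant library than in every B6J library, by little at the nearest values. Of its genes Egr1 and Ier2 did the same, while Fos, Fosb, Junb, Arc, Npas4, Nr4a1, Btg2 and Dusp1 overlapped. Nuclear noncoding RNAs (9, led by Rian) summed to 2569, 1932 and 3146 TPM in B6J, 2469, 2467 and 2277 in Gtpbp1 mutants, and 3092, 2269 and 2195 in Gtpbp2 mutants. The list includes Xist, which follows sex and had 181, 0.556 and 198 TPM in B6J, so sex is part of the spread of this sum. Within B6J and within Gtpbp2 mutants, the library with most nuclear noncoding RNA was also the one with the largest percentage of TPM in members, given below.

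Of the targeted genes, Gtpbp1 is given first. Its summed TPM was 43.5, 38.4 and 40.4 in B6J, 34.5, 35.1 and 41.1 in Gtpbp1 mutants, and 40.3, 43.2 and 39.9 in Gtpbp2 mutants. On counts summed over the gene, edgeR gave a log2 change of -0.73 in Gtpbp1 mutants against B6J with an adjusted p of 5.94e-05, and for footprints -1.57 with an adjusted p of 0.00676. The adjusted p is corrected over all features tested by Benjamini and Hochberg, and here a value of at most 0.05 was called. RNA from the gene was thus still present in Gtpbp1 mutants. Its coding transcript Gtpbp1-201 had 31.3, 34.6 and 28.6 TPM in B6J, 21.01, 19.95 and 20.9 in Gtpbp1 mutants, and 28.1, 35.9 and 32.0 in Gtpbp2 mutants. In every Gtpbp1 mutant it was lower than in any other mouse.

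Gtpbp1 had 1 member, Gtpbp1-207, of 490 bases at chr15:79718911-79720181 on the plus strand (GRCm38), downstream of the deleted exons 3 and 4. It had 7.83, 1.30 and 3.64 TPM in B6J, 10.4, 9.49 and 12.8 in Gtpbp1 mutants, and 4.72, 4.91 and 4.56 in Gtpbp2 mutants. Its share of the gene was 18.0%, 3.38% and 8.997% in B6J, 30.1%, 27.1% and 31.04% in Gtpbp1 mutants, and 11.7%, 11.4% and 11.4% in Gtpbp2 mutants. Neither quantity overlapped between Gtpbp1 mutants and the other genotypes. The edgeR log2 change in Gtpbp1 mutants against B6J was 0.76 with an adjusted p of 0.809, and the limma log2 change of share was 2.15 with an adjusted p of 0.701, with the B6J values spread from 10 to 63 estimated counts. Against Gtpbp2 mutants the limma log2 change of share was 1.66 with an adjusted p of 0.182, so the share of this member did not pass in either comparison.

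Gtpbp2 had 6 members. Summed TPM of the gene was 114, 91.7 and 99.0 in B6J, 139, 160 and 162 in Gtpbp1 mutants, and 127, 145 and 151 in Gtpbp2 mutants. On counts, edgeR gave a log2 change of -0.22 in Gtpbp2 mutants with an adjusted p of 0.190 and of 0.34 in Gtpbp1 mutants with an adjusted p of 0.0154. For footprints the log2 change in Gtpbp2 mutants was -0.97 with an adjusted p of 0.321. Coding transcript Gtpbp2-201 had 31.3, 29.6 and 34.2 TPM in B6J, 49.99, 41.9 and 46.4 in Gtpbp1 mutants, and 18.2, 23.5 and 22.5 in Gtpbp2 mutants, lowest in every Gtpbp2 mutant. Summed TPM and summed counts of the gene differed in direction in the Gtpbp2 mutants, and why was not tested. TPM gives more weight to short transcripts than counts do. The part of this, or of the library properties given above, in the difference was not tested.

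Gtpbp2-212, which begins inside intron 6 and runs over chr17:46165696-46167882 on the plus strand, had 7.41, 9.46 and 5.03 TPM in B6J, 13.6, 11.9 and 10.1 in Gtpbp1 mutants, and 24.6, 22.4 and 21.2 in Gtpbp2 mutants. Its share was 6.50%, 10.3% and 5.08% in B6J, 9.82%, 7.42% and 6.25% in Gtpbp1 mutants, and 19.3%, 15.5% and 13.99% in Gtpbp2 mutants. Both were higher in every Gtpbp2 mutant than in every other mouse. In edgeR its log2 change in Gtpbp2 mutants was 1.495 with an adjusted p of 0.140, and in limma the log2 change of share was 1.34 with an adjusted p of 0.787, so neither passed. Gtpbp2-214, which keeps intron 3 whole, had 10.8, 6.74 and 6.08 TPM in B6J, 10.6, 15.0 and 12.1 in Gtpbp1 mutants, and 17.6, 19.95 and 17.8 in Gtpbp2 mutants. It was highest in all Gtpbp2 mutants as well, with an edgeR log2 change of 1.10 and an adjusted p of 0.225. Gtpbp2-202, which keeps intron 7 whole, had 9.99, 6.00 and 10.4 TPM in B6J, 11.4, 16.0 and 17.4 in Gtpbp1 mutants, and 9.51, 12.7 and 14.3 in Gtpbp2 mutants, and these overlapped. The other members Gtpbp2-207, Gtpbp2-209 and Gtpbp2-213 had means of 12.8, 7.16 and 6.27 TPM and adjusted p values from 0.290 to 0.967 in edgeR for Gtpbp2 mutants against B6J. Every Gtpbp2 mutant was above every B6J mouse for Gtpbp2-209 (6.75 to 9.56 against 2.74 to 6.42 TPM). The same held for Gtpbp2-213 (7.32 to 8.70 against 2.835 to 4.136 TPM), and Gtpbp2-207 overlapped.

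The splice sites of the Gtpbp2 introns that these members hold are shown because the members differ in which intron sequence they keep. They are read from the GRCm38 reference and not from the mutant allele. Introns 3, 6 and 7 lie at chr17:46164379-46164724, chr17:46165630-46165777 and chr17:46165998-46166310, all on the plus strand. Each line holds 10 exonic and 20 intronic bases, and capitals mark the GT or AG at the intron's end.
Gtpbp2 intron 3 donor: tggcagagaaGTatgcgccctcctccccct
Gtpbp2 intron 3 acceptor: ctgtgtcttctctgtgacAGggttggggca
Gtpbp2 intron 6 donor: actggaatcgGTaggagacactgagcagag
Gtpbp2 intron 6 acceptor: tgcctcctcccccgaggcAGccggcaccac
Gtpbp2 intron 7 donor: agtcacccaaGTgagcctgcctctctccct
Gtpbp2 intron 7 acceptor: atgcatttgtctcttcacAGtgtcacccct

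Members were mostly minor products of their genes. Their mean level had a median of 3.03 TPM with quartiles of 1.76 and 5.92, and 1202 members reached 10 TPM, 87 reached 50 TPM and 25 reached 100 TPM. The mean share had a median of 6.89% with quartiles of 3.40% and 13.3%, and 3484 members held at least 10% of their gene, 850 at least 25% and 155 at least 50%. Per gene, the members together held a median of 14.8% of TPM, and in 422 genes at least 50%. A single member was found in 2589 genes, exactly 2 members in 1267 and exactly 3 in 591, while 300 genes had 5 or more and 8 genes 10 or more. Members of the same gene share reads, and they are not independent of each other. Their median length was 791 bases, with quartiles of 599 and 1885. Just inside the threshold lay Tmem191c-207, Sparc-203 and Frmd4b-207 with means of 1.00 TPM (1.000296, 1.000285 and 1.000044), and just outside lay Narfl-202 and Ints6-204 with 0.999875 and 0.999717.

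Highest by mean TPM was Gm43305-201, of a gene with a model name only, where it took 99.1% of its gene, with 854, 979 and 767 TPM in B6J, 597, 521 and 656 in Gtpbp1 mutants, and 738, 651 and 530 in Gtpbp2 mutants. Its edgeR log2 changes were -0.67 with an adjusted p of 0.0831 in Gtpbp1 mutants and -0.56 with an adjusted p of 0.225 in Gtpbp2 mutants. Next by mean TPM came Ppia-204 with 400.1, Itm2b-202 with 277, Ppia-203 with 259, Apod-201 with 237 and Ctnnb1-215 with 219. Ppia encodes the abundant prolyl isomerase cyclophilin A, Itm2b a membrane protein, Apod an apolipoprotein of glia and Ctnnb1 beta-catenin. Prkcb-208 of protein kinase C beta had a mean of 211 TPM, Calr-204 of the chaperone calreticulin 209, Hnrnpa2b1-211 of an RNA-binding protein 200.4 and Trf-209 of transferrin 199. These held from 16.6% of their gene for Ppia-203 to 64.1% for Prkcb-208. The 5 of highest mean share were Gm20427-201 and Gm36995-201 at 100% each, Iltifb-202 at 99.9%, Gm43305-201 at 99.1% and A330040F15Rik-201 at 98.1%, in genes where little else was detected.

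Position was known for 9868 members, matched by transcript in Gencode M21. Of these 3227 ran through at least 1 whole intron of a coding transcript of their gene: 2160 through exactly 1, 634 through exactly 2 and 433 through 3 or more. A further 6524 reached into an intron without covering it, and 117 met no such intron. The annotation thus gave a fully kept intron for fewer members than it gave a partly covered one. A single exon made up 617 members, and the median was 3 exons.

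The 4550 different introns kept whole lay in 2141 genes and were set against 71964 introns of host genes that no retained intron transcript keeps whole. Their median length was 245 bases against 1299, and 33.4% against 10.6% were under 150 bases. Their median GC content was 51.8% against 45.4%. The kept introns were shorter and richer in GC, as a description with no test. A kept intron must fit inside an exon of a member, and members had a median length of 791 bases. Long introns could thus less often be counted as kept, so the gap in length is partly set by this rule. GC content was not compared at equal length. The donor began with GT in 98.3% against 98.7%, and the full consensus GTAAGT opened 9.14% against 12.8%, while GTGAGT opened 13.8% against 14.4%. The 20 bases before the intron's closing AG held a median of 75% pyrimidines in both groups. First introns made up 10.9% against 13.6%, last introns 9.54% against 9.67%, introns between coding exons 93.2% against 90.0% and those in the 5′ UTR 5.67% against 9.28%.

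All members together held 5.62%, 5.10% and 5.98% of TPM in B6J, 6.00%, 6.10% and 5.76% in Gtpbp1 mutants, and 6.31%, 5.90% and 5.76% in Gtpbp2 mutants. The means were 5.56% ± 0.444, 5.95% ± 0.174 and 5.99% ± 0.286 (SD, n = 3), and the mutant values overlapped the B6J range. With mitochondrial transcripts left out, the values were 7.03%, 6.32% and 7.52% in B6J, 6.99%, 7.36% and 6.90% in Gtpbp1 mutants, and 7.64%, 7.08% and 6.86% in Gtpbp2 mutants. On this scale the genotypes overlapped. As a percentage of the TPM of their own genes members held 14%, 12.7% and 14.8% in B6J, 14.1%, 14.6% and 13.7% in Gtpbp1 mutants, and 15.2%, 14.1% and 14.1% in Gtpbp2 mutants, which overlapped too. B6J replicate 2, the control with fewest members at 0, had the lowest value on all 3 scales. The median share of a member in a library was 6.21%, 5.89% and 6.32% in B6J, 6.58%, 6.75% and 6.32% in Gtpbp1 mutants, and 7.29%, 6.65% and 6.66% in Gtpbp2 mutants. Every mutant value was at or above the highest B6J value here.

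Levels of the members varied between mice of 1 genotype more than those of coding transcripts. The median coefficient of variation was 38.4% in B6J, 27.1% in Gtpbp1 mutants and 25.7% in Gtpbp2 mutants, against 22.0%, 16.9% and 17.4% for 26475 protein-coding transcripts with a mean of at least 1 TPM. Pearson's r of log2 TPM across the members, given as a description, was 0.740, 0.631 and 0.708 between pairs of B6J mice, 0.805, 0.787 and 0.802 between Gtpbp1 mutants, and 0.808, 0.786 and 0.843 between Gtpbp2 mutants. The pair of B6J replicates 1 and 3 had the lowest r, so these libraries stood apart from each other as well as from the rest. A total of 8096 members were above 0 in all 9 libraries and 1775 were at 0 in at least 1.

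By genotype mean, 8792 members reached 1 TPM in B6J, 9383 in Gtpbp1 mutants and 9480 in Gtpbp2 mutants, and 8182 did in each genotype. Under 1 TPM in B6J but at least 1 TPM in both mutants were 917, and 107 showed the reverse. Since 6 of the 9 libraries that set the rule were mutant, a member high in the mutants alone could pass, and these counts are no test. A higher mean TPM than in B6J was seen for 6132 members (62.1%) in Gtpbp1 mutants and 6379 (64.6%) in Gtpbp2 mutants, and against B6J replicate 2 alone for 6995 (70.9%) and 7224 (73.2%). A higher mean share was seen for 5366 (54.4%) and 5705 (57.8%), and against B6J replicate 2 alone for 6129 (62.1%) and 6492 (65.8%). These counts of higher means were not made over all transcripts, so they show no rise particular to members. Against replicate 2 alone a mean of several libraries is set against a single value, which can itself move the percentages. The median change of share was 0.156 percentage points in Gtpbp1 mutants and 0.288 in Gtpbp2 mutants, and 0.494 and 0.673 against B6J replicate 2 alone. On log2 TPM in limma the median change was 0.18 over members and 0.17 over all transcripts in Gtpbp1 mutants, and 0.21 and 0.17 in Gtpbp2 mutants, whereas edgeR, which rescales libraries by TMM, gave 0.00 and 0.06 over members. With B6J replicate 2 as the only control edgeR gave 0.13 over members and 0.05 over all transcripts in Gtpbp1 mutants, and 0.17 and 0.04 in Gtpbp2 mutants. The size of the upward shift, and whether it exceeded that of all transcripts, thus depended on the method and on the controls used. Both comparisons share the B6J libraries, so likeness between them is not independent.

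The first comparison asked which transcripts changed without Gtpbp1. The edgeR quasi-likelihood test was fitted to every transcript that had 5 or more counts in 3 or more of the 6 libraries compared. Of the members 9626 met this filter and 245 did not, and 35 of those tested had no B6J library at 5 counts while 10 had no Gtpbp1 mutant library at 5 counts, so these passed through 1 genotype only. Past an adjusted p of 0.05 were 23 members (0.239%), 11 higher and 12 lower, against 0.715% of all 67667 transcripts. An unadjusted p under 0.05 was reached by 663 members (6.89%), against 11.0% of all transcripts. The median log2 change was 0.00 over members and 0.05 over all transcripts. Members and all transcripts are not matched for level, and the difference between these percentages was not tested. With B6J replicate 2 as the only control edgeR called 0 members, with 548 at an unadjusted p under 0.05. Leaving out 1 library left 2 members without B6J replicate 1, 5 without B6J replicate 2, 9 without B6J replicate 3, and 4, 2 and 2 without Gtpbp1 replicates 1, 2 and 3. DESeq2 called 412 members and 5372 of all 67667 transcripts, and limma on log2 TPM 31 members and 505 of 85468 transcripts. With sex as a covariate edgeR called 2 members and 43 of all transcripts. With a replicate block it called 0 members and 0 of all, with 383 members at an unadjusted p under 0.05. Lost calls could keep the fold: with sex and with the block the log2 change was 1.42 and 1.41 for Mars-205, and 2.56 and 2.59 for Shmt2-202. The count thus rested on the tool, the covariates and each library. The split by direction did too: limma called 22 higher and 9 lower, and 0 lower were called without B6J replicate 1 or without any 1 of the Gtpbp1 libraries. Slc7a3-205 and Cyb5r1-204 were called without any 1 of the 6 libraries, and each of the other 21 missed the threshold without at least 1 of them, with a largest adjusted p between 0.0538 for Mars-205 and 0.222 for Vegfa-209. Slc7a3-205 and Cyb5r1-204 had B6J means under 1 TPM, of 0.904 and 0.502, and so met the mean TPM rule only through the mutants in which they are high. Every B6J library held at least 25 counts of each, but their calls are given as a description, as for Arhgef2-230 below, which leaves 8 of the 11 called higher.

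TPM values of the Gtpbp1 mutants lay all above those of B6J for 1421 members (14.4%) and all below for 458 (4.64%). Among all 49449 transcripts with a mean of at least 1 TPM these percentages were 17.8% and 6.6%. Members were thus not more often separated than transcripts at large in either direction.

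Slc7a3-205, 1 of the members of smallest p in Gtpbp1 mutants, lies at chrX:101079210-101085405 on the minus strand in the gene of a transporter of arginine and lysine. It had 0.739, 0.689 and 1.29 TPM in B6J, 39.3, 52.5 and 53.1 in Gtpbp1 mutants, and 31.4, 54.1 and 54.9 in Gtpbp2 mutants. The genotypes did not overlap, and mean TPM was 53.4-fold higher in Gtpbp1 mutants and 51.8-fold higher in Gtpbp2 mutants. In edgeR the log2 change was 5.62 ± 0.31 (SE) with an adjusted p of 0.00633 in Gtpbp1 mutants and 5.58 ± 0.38 with an adjusted p of 0.0247 in Gtpbp2 mutants, both given as a description because of the mean TPM rule. Its share of the gene was 16.8%, 14.2% and 37.9% in B6J, 34.3%, 40.0% and 37.1% in Gtpbp1 mutants, and 28.9%, 36.2% and 39.4% in Gtpbp2 mutants. B6J replicate 3 reached the mutant range, so shares overlapped. The whole gene changed too, by log2 4.73 in Gtpbp1 mutants and 4.76 in Gtpbp2 mutants for RNA and by 3.91 and 3.47 for footprints, each called by edgeR. With B6J replicate 2 as the only control its log2 change in Gtpbp1 mutants was 5.96 with an adjusted p of 0.0864.

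Cyb5r1-204, of a cytochrome b5 reductase, had 0.434, 0.565 and 0.508 TPM in B6J, 8.76, 7.54 and 8.98 in Gtpbp1 mutants, and 4.84, 8.30 and 9.48 in Gtpbp2 mutants. Its edgeR log2 change was 3.94 with an adjusted p of 0.00633 in Gtpbp1 mutants and 3.79 with an adjusted p of 0.0342 in Gtpbp2 mutants, a description for the same reason. Its share was 2.45%, 3.51% and 3.01% in B6J, 8.47%, 7.32% and 6.70% in Gtpbp1 mutants, and 7.42%, 7.43% and 7.72% in Gtpbp2 mutants. Here level and share were both higher in every mutant than in every control, in a member that the mutant levels brought above the mean TPM rule, so this too is a description. The adjusted p in Gtpbp1 mutants with B6J replicate 2 alone was 0.106.

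Mars-205, of the methionyl-tRNA synthetase, had 17.0, 16.5 and 19.0 TPM in B6J, 45.9, 55.0 and 49.9 in Gtpbp1 mutants, and 45.3, 57.9 and 49.1 in Gtpbp2 mutants. Its edgeR log2 change was 1.41 with an adjusted p of 0.00756 in Gtpbp1 mutants and 1.43 with an adjusted p of 0.0295 in Gtpbp2 mutants. Shares of 32.8%, 35.9% and 27.7% in B6J, 33.4%, 40.3% and 39.5% in Gtpbp1 mutants, and 45.8%, 43.7% and 42.7% in Gtpbp2 mutants show that level and share separated differently: the share overlapped in Gtpbp1 mutants and did not in Gtpbp2 mutants. Shmt2-202, of a mitochondrial enzyme of serine and one-carbon metabolism, had 4.39, 4.68 and 3.01 TPM in B6J, 22.8, 29.9 and 29.9 in Gtpbp1 mutants, and 27.3, 32.4 and 33.7 in Gtpbp2 mutants. It was called in both comparisons, with log2 changes of 2.58 (adjusted p 0.0209) and 2.81 (adjusted p 0.0342). Vegfa-205, of a vascular growth factor, had 25.1, 26.1 and 27.8 TPM in B6J, 81.7, 103 and 93.2 in Gtpbp1 mutants, and 54.5, 90.4 and 99.8 in Gtpbp2 mutants. Its log2 change was 1.65 (adjusted p 0.0105) in Gtpbp1 mutants and 1.5 (adjusted p 0.0986) in Gtpbp2 mutants. Its share stayed between 20.8% and 27.8% in all 9 libraries. Vegfa-208 and Vegfa-209 were called in Gtpbp1 mutants as well, with log2 changes of 2.72 (adjusted p 0.0426) and 1.65 (adjusted p 0.0483).

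Arhgef2-230, of a guanine nucleotide exchange factor, had 0 estimated counts in each B6J library, 63, 166 and 83 in Gtpbp1 mutants, and 104, 219 and 143 in Gtpbp2 mutants. Against a floor of 3 counts over the B6J group it was at least 120-fold higher in Gtpbp1 mutants and at least 158-fold higher in Gtpbp2 mutants, with counting error alone considered. It is 1 of the 35 members tested with no B6J library at 5 counts, and it met the mean TPM rule and the count filter only through the mutants in which it is high, so its adjusted p in edgeR, 0.0354 in Gtpbp1 mutants and 0.0505 in Gtpbp2 mutants, is given as a description. It remained a small part of its gene, with shares from 0.656% to 2.06% in the mutant libraries. A further member of Arhgef2 rose by log2 1.53 in Gtpbp1 mutants (adjusted p 0.0390). Bbc3-203, of the proapoptotic protein PUMA, had 3.47, 3.17 and 3.33 TPM in B6J, 13.4, 9.89 and 13.2 in Gtpbp1 mutants, and 9.93, 11.1 and 9.89 in Gtpbp2 mutants, with a log2 change of 1.71 (adjusted p 0.0478) in Gtpbp1 mutants. Slc38a1-206, of a neutral amino acid transporter, rose by 0.90 (adjusted p 0.0404). These completed the 11 members called higher, and all 23 called members are described, the 3 beyond the 10 of smallest p in each direction having been added after their values were seen.

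Of the 12 members called lower in Gtpbp1 mutants, Ppia-203 was the most abundant, with 371, 338 and 343 TPM in B6J, 155, 163 and 146 in Gtpbp1 mutants, and 316, 314 and 189 in Gtpbp2 mutants. Its log2 change in edgeR was -1.43 (adjusted p 0.0158) in Gtpbp1 mutants and -0.49 (adjusted p 0.568) in Gtpbp2 mutants, and the difference between the mutants, -0.94, was not called. Its share was 22.8%, 21.2% and 19.3% in B6J, 9.94%, 11.3% and 11.0% in Gtpbp1 mutants, and 20.1%, 21.4% and 12.1% in Gtpbp2 mutants. Gtpbp2 replicate 3 thus sat near the Gtpbp1 mutants, and it was also the Gtpbp2 library with the longer fragments, whose part was not tested. The member is 355 bases long, close to the fragment size. Ppia was the lone gene of a called member that was not itself called in RNA, at log2 -0.26 (adjusted p 0.0763). Aplp2-207, of an amyloid precursor-like protein, was similar, with 59.5, 57.4 and 53.6 TPM in B6J, 29.7, 24.0 and 19.0 in Gtpbp1 mutants, and 54.2, 42.0 and 13.4 in Gtpbp2 mutants, and a log2 change of -1.34 (adjusted p 0.0341) in Gtpbp1 mutants. Here too the lowest Gtpbp2 value was that of replicate 3.

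Eno2-203, of the neuronal enolase, had 76.1, 58.8 and 84.6 TPM in B6J, 27.3, 31.4 and 26.0 in Gtpbp1 mutants, and 36.5, 29.7 and 30.2 in Gtpbp2 mutants, with log2 changes of -1.49 (adjusted p 0.0202) and -1.30 (adjusted p 0.0549). Appl2-208, of an endosomal adaptor, had 58.4, 52.8 and 50.7 TPM in B6J, 34.1, 35.7 and 34.3 in Gtpbp1 mutants, and 34.6, 31.5 and 32.8 in Gtpbp2 mutants, with log2 changes of -0.75 (adjusted p 0.0208) and -0.83 (adjusted p 0.0435). Cul7-202, of a ubiquitin ligase scaffold, had 12.7, 7.78 and 9.18 TPM in B6J, 2.76, 2.47 and 2.04 in Gtpbp1 mutants, and 4.01, 4.39 and 3.29 in Gtpbp2 mutants. These 3 members were lower in every mutant than in every control. Cul7-202 passed in Gtpbp1 mutants, at a log2 change of -2.17 (adjusted p 0.0336). The share of Cul7-202, singled out after its values were seen, was 46.0%, 39.3% and 43.6% in B6J, 16.9%, 18.6% and 15.5% in Gtpbp1 mutants, and 22.1%, 25.8% and 24.0% in Gtpbp2 mutants. In limma this share changed by log2 -1.84 in Gtpbp1 mutants with an adjusted p of 0.160. The rest of the 12 were Gpr162-202 (-0.99), Aifm3-204 (-1.60), Aifm3-203 (-1.17), Atg4d-203 (-1.19), Dpysl4-206 (-1.24), Jph4-204 (-1.30) and Ppp6r2-204 (-0.97), with adjusted p values from 0.0191 to 0.0350.

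Splice sites are shown for 1 kept intron of each of 3 called members, with lengths of 440, 239 and 76 bases, because kept introns define the class. Not shown are 2 further introns that Appl2-208 keeps whole, of 250 and 1219 bases, and introns of 83 and 132 bases of Mars-206, which lie within the one shown for Mars-205. The introns are number 10 of 12 in Slc7a3-202 at chrX:101080268-101080707, number 19 of 20 in Mars-201 at chr10:127296634-127296872 and number 13 of 20 in Appl2-201 at chr10:83611067-83611142, all on the minus strand of GRCm38. Capitals mark the GT or AG at the intron's end.
Slc7a3-205 donor: tcactgcttgGTgagcagcggatttttttc
Slc7a3-205 acceptor: tctcaacttgacttttgaAGccgtactact
Mars-205 donor: agggggtcagGTgagcaagctggactgtgc
Mars-205 acceptor: cgattgtgctgctcttctAGgctaaaggct
Appl2-208 donor: caacccagagGTaacttaaccgcttgcact
Appl2-208 acceptor: ctcctgtggcttacctttAGgcagtagcca

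The second comparison asked the same of Gtpbp2. Of the members 9666 met the count filter and 205 did not, and 40 of those tested had no B6J library at 5 counts while 4 had no Gtpbp2 mutant library at 5 counts. Past an adjusted p of 0.05 in edgeR were 6 members (0.0621%), 5 higher and 1 lower, against 0.144% of all 68960 transcripts. An unadjusted p under 0.05 was reached by 534 members (5.53%), against 9.46% of all transcripts, and the median log2 change was 0.06 over members and over all transcripts. The called members were Slc7a3-205, Cyb5r1-204, Mars-205, Shmt2-202 and Appl2-208, given above, and Slc38a2-202, of which the first 2 are a description. This last, of a neutral amino acid transporter, had 5.68, 5.74 and 5.20 TPM in B6J, 8.45, 11.1 and 11.3 in Gtpbp1 mutants, and 11.4, 12.2 and 12.3 in Gtpbp2 mutants. Its log2 change was 1.00 (adjusted p 0.0464) in Gtpbp2 mutants and 0.79 (adjusted p 0.0831) in Gtpbp1 mutants. With B6J replicate 2 as the only control edgeR called 0 members, with 557 at an unadjusted p under 0.05. Without B6J replicates 1, 2 or 3 the count was 0, 0 and 1, and without Gtpbp2 replicates 1, 2 or 3 it was 4, 0 and 0. DESeq2 called 154 members and 2736 of all 68960 transcripts, and limma on log2 TPM 9 members and 104 of 85288 transcripts. With sex as a covariate or with a replicate block edgeR called 0 members and 0 of all transcripts. Of the members 734 and 325 were then at an unadjusted p under 0.05. B6J replicate 2 was the only male of these 6 libraries, so the sex covariate sets it apart much as leaving it out does. Against B6J replicate 2 alone the Gtpbp2 mutants, all female, differ in sex as well as genotype, and these cannot be told apart.

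All TPM values of the Gtpbp2 mutants were above those of B6J for 1470 members (14.9%) and below for 342 (3.47%). Among all transcripts with a mean of at least 1 TPM these percentages were 16.5% and 5.77%. Separation in either direction was again no more frequent among members than among transcripts at large.

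The share test asked whether a member took a different part of its gene. It used limma on the log2 ratio of a member's TPM to the summed TPM of the gene's other transcripts, with 0.1 TPM added to both, and could be run for 9836 members. In Gtpbp1 mutants 0 members passed an adjusted p of 0.05, against 0.00962% of all 41570 transcripts, with 516 (5.25%) at an unadjusted p under 0.05 against 6.91% of all. In Gtpbp2 mutants 0 members passed, against 0% of all, with 466 (4.74%) at an unadjusted p under 0.05 against 6.26% of all. With B6J replicate 2 as the only control limma again called 0 in each comparison, with 504 and 591 at an unadjusted p under 0.05. The diffSpliceDGE test of edgeR called 7 of 9613 members in Gtpbp1 mutants and 7 of 9653 in Gtpbp2 mutants. Of all transcripts it called 138 of 56067 and 142 of 57163. In limma on all 9 libraries 9 and 5 of 9836 members were called, against 39 and 18 of all 41570 transcripts. In the main limma test the median log2 change of share was 0.11 in Gtpbp1 mutants and 0.16 in Gtpbp2 mutants, against 0.06 and 0.07 over all transcripts. Without B6J replicate 2 the medians were 0.06 and 0.11, against 0.06 and 0.08. With that library as the only control they were 0.11 and 0.17, against -0.01 and 0.01. The gap between members and all transcripts thus depended on the controls. By annotation class the medians in Gtpbp1 mutants were 0.02 for protein-coding transcripts, 0.15 for nonsense-mediated decay transcripts and 0.15 for processed transcripts, and in Gtpbp2 mutants 0.02, 0.15 and 0.16. On the log2 scale the small upward median was thus shared with other classes of minor transcript. In percentage points the median change in Gtpbp2 mutants was 0.287 for the class of retained introns, 0.129 for nonsense-mediated decay and 0.0850 for processed transcripts, with 62.0%, 58.8% and 58.4% above 0. In Gtpbp1 mutants it was 0.154, 0.148 and 0.0837 points, and the differences between classes were not tested.

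Shares of Gtpbp1 mutants lay all above B6J for 872 members (8.87%) and all below for 496 (5.04%), against 7.83% and 6.68% of all transcripts in the share test. Shares of Gtpbp2 mutants lay all above for 997 members (10.1%) and all below for 371 (3.77%), against 7.86% and 5.94% of all. In both mutants a larger percentage of members than of transcripts at large was all above and a smaller one all below. These differences were not tested.

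The members with the smallest p of the share test were looked up after the values were seen, and they were mostly at 0 in B6J. Pick1-202, of a synaptic scaffold protein, had the smallest p in Gtpbp1 mutants, with 0 TPM in each B6J library, 3.59, 3.20 and 2.12 in Gtpbp1 mutants, and 1.14, 1.49 and 2.83 in Gtpbp2 mutants. It was at least 42.3-fold higher in Gtpbp1 mutants and at least 26.5-fold higher in Gtpbp2 mutants, against 3 counts over the B6J group, with an adjusted p of 0.144 and 0.329 in limma. In Gtpbp2 mutants the smallest p was that of 1700030K09Rik-203, with 0, 0 and 0 estimated counts in B6J, 2, 2 and 5 in Gtpbp1 mutants, and 6, 12 and 6 in Gtpbp2 mutants, and an adjusted p of 0.0784. At these counts its share reached 58.1% in 1 library, so a share can rest on a few reads. Both members met the mean TPM rule only through the mutants, so their folds and adjusted p values are a description.

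Between the mutants, which asks whether loss of either gene differs, edgeR tested 9676 members and left out 195. Of those tested, 23 had no Gtpbp1 mutant library at 5 counts and 3 no Gtpbp2 mutant library at 5 counts. It called 0 members, against 0.00426% of all 70389 transcripts, with 252 (2.60%) at an unadjusted p under 0.05 against 3.01% of all. DESeq2 called 10 members and 223 of all transcripts, and limma on log2 TPM 0 members and 8 of all. All Gtpbp1 mutant TPM values were above those of Gtpbp2 mutants for 389 members (3.94%) and below for 583 (5.91%), against 4.68% and 4.47% of all transcripts. Shares were all above for 366 (3.72%) and all below for 608 (6.18%), against 4.37% and 5.16% of all. In limma the share test called 0 members, against 0.00241% of all, with 333 (3.39%) at an unadjusted p under 0.05 against 4.17% of all. The diffSpliceDGE test called 5 of 9664 members and 92 of all 58455 transcripts. The smallest adjusted p of the limma share test was 0.134 for Ulk1-205. It had 0, 2 and 0 estimated counts in B6J, 0 in each Gtpbp1 mutant, and 15, 11 and 10 in Gtpbp2 mutants. This member met the mean TPM rule through the Gtpbp2 mutants in which it is high, so its adjusted p is a description. B6J libraries are not in this comparison, so their replicates 1 and 3 bear on it only through the mean TPM rule that chose the members.

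Of the transcript test between the mutants, the smallest p among members, looked up after the values were seen, was that of Pisd-212, of the mitochondrial phosphatidylserine decarboxylase. It had 28.7, 14.8 and 30.5 TPM in B6J, 7.59, 6.38 and 9.13 in Gtpbp1 mutants, and 30.9, 21.4 and 19.4 in Gtpbp2 mutants. Its log2 difference of Gtpbp1 from Gtpbp2 mutants was -1.63 with an adjusted p of 0.375 in edgeR. Gtpbp1 mutants were lowest in all 3 mice, and the difference did not pass.

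By role, the kinases of SR proteins had 33 members in 9 of 13 genes. None of the 33 was called by edgeR in any of the 3 comparisons. Of all transcripts it called 0.715% in Gtpbp1 mutants, 0.144% in Gtpbp2 mutants and 0.00426% between the mutants. At such shares 0 of 33 says little about these kinases. The median log2 changes of the 33 were -0.10 in Gtpbp1 mutants and 0.03 in Gtpbp2 mutants, against 0.00 and 0.06 over all members. Clk1-204, of a kinase that phosphorylates SR proteins, had 35.0, 34.7 and 42.9 TPM in B6J, 44.0, 48.3 and 43.9 in Gtpbp1 mutants, and 59.4, 49.0 and 54.0 in Gtpbp2 mutants. Its values in both mutants were above all B6J values, with adjusted p values of 0.713 and 0.321 in edgeR. Clk1-213 of the same gene went the other way in Gtpbp1 mutants. It had 9.81, 7.20 and 6.69 TPM in B6J, 3.47, 2.12 and 2.565 in Gtpbp1 mutants, and 0, 11.9 and 0.547 in Gtpbp2 mutants. Its edgeR log2 change in Gtpbp1 mutants was -1.68 with an adjusted p of 0.155. Spliceosome components and splicing regulators had 347 members in 120 of 208 genes. Of these members 339 were tested in Gtpbp1 mutants and 343 in Gtpbp2 mutants. The edgeR test called 0 of them, where it called 0.715% and 0.144% of all transcripts. Calls by list are those of edgeR throughout, as other tools were not tallied by list. Their medians were -0.04 and 0.05, and 7 host genes rose and 10 fell in Gtpbp1 mutants, 2 and 3 in Gtpbp2 mutants, of 120 host genes, which is near or under the 13.8% and 8.63% of all genes called. Factors of nonsense-mediated decay and the exon junction complex had 18 members in 6 of 20 genes, with medians of -0.11 and -0.04. Of these members 0 were called, where 0.715% and 0.144% of all transcripts were, so this count says little.

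Genes of the integrated stress response and targets of ATF4 had 80 members in 44 of 75 genes. In Gtpbp1 mutants 4 of 78 tested were called higher and in Gtpbp2 mutants 5 of 79, with none lower by edgeR, where 0.715% and 0.144% of all transcripts were called, and their median log2 changes were 1.07 and 1.14. Of their 44 host genes 35 rose and 0 fell in Gtpbp1 mutants, and 34 rose and 0 fell in Gtpbp2 mutants, where 13.8% and 8.63% of all genes were called. In footprints 17 and 25 were higher, where 0.745% and 2.94% of all genes were called. The median log2 change of share was 0.16 and 0.17, against 0.11 and 0.16 over all members. Slc7a3-205, Cyb5r1-204, Mars-205 and Shmt2-202 belong to this list, and Slc38a2-202 is the member called in Gtpbp2 mutants alone. Slc7a3-205 and Cyb5r1-204 met the mean TPM rule only through the mutants, so the counts and medians of this list are a description, and without these 2 the calls are 2 and 3. In this list level moved more than share.

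Ribosome rescue and quality control factors had 38 members in 14 of 28 genes, with medians of 0.18 and 0.26. Of these members 0 were called by edgeR, where 0.715% of all transcripts were called in Gtpbp1 mutants and 0.144% in Gtpbp2 mutants. At such shares 0 called says little about this list or the ribosomal protein and synaptic lists that follow. Nemf-206, of a factor that marks stalled nascent chains, had 5.18, 4.50 and 4.44 TPM in B6J, 6.83, 6.99 and 6.82 in Gtpbp1 mutants, and 6.01, 6.58 and 7.12 in Gtpbp2 mutants, and did not pass (adjusted p 0.324 and 0.579). Ribosomal proteins and translation factors had 213 members in 95 of 166 genes, with 0 of 204 and 0 of 205 called and medians of 0.19 and 0.16. Rps16-203, of a small subunit protein, had 77.8, 82.3 and 79.1 TPM in B6J, 136, 130 and 126 in Gtpbp1 mutants, and 102, 111 and 121 in Gtpbp2 mutants. Its share was 47.9%, 54.1% and 46.3% in B6J, 60.8%, 59.4% and 64.3% in Gtpbp1 mutants, and 60.4%, 59.0% and 59.4% in Gtpbp2 mutants. Both were higher in each mutant, with edgeR log2 changes of 0.35 (adjusted p 0.347) and 0.27 (adjusted p 0.607). The rise in TPM was larger than that on TMM-scaled counts, and why was not tested. Eif4a2-218, of a translation initiation helicase, had 11.9, 9.99 and 10.8 TPM in B6J, 23.1, 26.0 and 18.7 in Gtpbp1 mutants, and 20.7, 19.8 and 17.8 in Gtpbp2 mutants, with log2 changes of 0.94 (adjusted p 0.09997) and 0.72 (adjusted p 0.192). Synaptic and ion channel genes had 174 members in 81 of 337 genes, with 0 called and medians of -0.07 and -0.06. Of their 81 host genes 5 were higher and 29 lower in Gtpbp1 mutants and 2 higher and 23 lower in Gtpbp2 mutants, where 13.8% and 8.63% of all genes tested were called. Between the mutants edgeR called 0 members of any list, where 0.00426% of all transcripts were called. List medians there ran from -0.18 for the SR protein kinases to 0.03 for synaptic and ion channel genes.

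Host genes were called more often than their members. On RNA counts summed per gene, edgeR called 1139 of 5047 genes with a member in Gtpbp1 mutants (369 higher and 770 lower, 22.6%), against 13.8% of all genes tested. In Gtpbp2 mutants it called 686 (203 higher and 483 lower, 13.6%), against 8.63% of all. With B6J replicate 2 as the only control the counts were 521 and 78. Without B6J replicate 1 they were 730 and 285, without Gtpbp1 replicate 2 the first was 660, and without B6J replicate 2, Gtpbp2 replicate 2 and Gtpbp2 replicate 3 the second was 331, 412 and 325. The median log2 change was -0.05 in each comparison, against 0.03 over all genes. Genes with a member hold a transcript of at least 1 TPM, while all genes tested include weaker ones, so the percentages are not matched for level.

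Of the 23 members called in Gtpbp1 mutants, 22 lay in genes called in the same direction, and so did 6 of 6 in Gtpbp2 mutants. A member's counts are part of its gene's sum, so these calls are not independent. Across the 9626 members tested in Gtpbp1 mutants, 62.3% had the sign of their gene, with a Spearman correlation of 0.348 and Pearson's r of 0.388 between the log2 changes. In Gtpbp2 mutants these were 60.5%, 0.338 and 0.382 across 9666. The relation is a description across members that share libraries and genes. In Gtpbp1 mutants 646 members of genes called higher had a median log2 change of 0.49, 1556 of genes called lower had -0.32, and 7424 of genes not called had 0.03. In Gtpbp2 mutants the values were 0.64 for 350 members, -0.28 for 972 and 0.08 for 8344. Members thus followed their genes in the median and with wide scatter.

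Footprints were counted on coding sequence per gene and cannot be assigned to a retained intron transcript, so they were used for host genes only. Footprint libraries held 4428395, 4489970 and 6523974 counts in B6J, 7054063, 8612441 and 5944024 in Gtpbp1 mutants, and 6281637, 3630823 and 10442573 in Gtpbp2 mutants. In Gtpbp1 mutants edgeR called 39 of 4882 host genes (27 higher and 12 lower, 0.799%), against 0.745% of all genes, and in Gtpbp2 mutants 130 of 4884 (56 higher and 74 lower, 2.66%), against 2.94% of all. The percentages were near those of all genes. Single libraries moved these counts: the first was 6 without B6J replicate 1, 17 without B6J replicate 2, 79 without B6J replicate 3, and 16 and 64 without Gtpbp1 replicates 1 and 3. The balance of directions turned as well, to 27 higher and 52 lower without B6J replicate 3, 30 and 34 without Gtpbp1 replicate 3, and 56 and 66 with DESeq2. The second was 75 and 58 without B6J replicates 1 and 2, and 27 and 47 without Gtpbp2 replicates 1 and 2, with more higher than lower without B6J replicate 2 or any 1 Gtpbp2 library. Across members, the log2 change in RNA and the footprint change of the host gene had a Spearman correlation of 0.147 (9385 members) in Gtpbp1 mutants and 0.139 (9433 members) in Gtpbp2 mutants.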

How the data were processed

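RNA was measured in 9 cerebellum libraries and ribosome footprints in 9 more. The authors quantified RNA reads with kallisto 0.42.4 on Gencode M20 and deposited estimated counts and TPM per transcript. The authors mapped footprints with hisat2 2.1.0 after removing ribosomal reads with bowtie2 2.2.3, and deposited footprint counts on coding sequence per gene. Values were used as deposited and estimated counts were rounded. Transcripts were tested with edgeR 4.0.16 (quasi-likelihood, TMM, at least 5 counts in at least 3 of 6 libraries) and shares with limma 3.58.1 (0.1 TPM added, trend and robust). P values were adjusted over all features, and 0.05 was the threshold. DESeq2 1.42.0 was an alternative, with R 4.3.3, Python 3.11.15, pandas 2.3.3 and numpy 2.4.6. The code was tested on simulated data. Introns of at least 30 bases came from Gencode M21. Members and lists were chosen with earlier results of these data known. Members were named as the 10 of smallest p in each direction among those called with values that did not overlap, the 10 of highest mean TPM and 5 of highest mean share, all of Gtpbp1 and Gtpbp2, and list examples by smallest p and by TPM, with others said to be chosen after their values were seen. Intervals and floors cover counting error only. Alternatives covered normalization, filters, pseudocounts, tools, sex, a replicate block and leaving out libraries.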

Additional observations from a re-analysis of the deposited data

How the results depend on the processing

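Members' deviations from their genotype mean gave little sign that replicate numbers pair mice. Their median r between genotypes was -0.01 for libraries of the same number (-0.033 to 0.08) and 0.0 for different numbers (-0.067 to 0.048). Such low correlations cannot show that pairing is absent. Counts of called members or host genes moved by more than 1.5 times as follows, in Gtpbp1 mutants and then Gtpbp2 mutants against B6J, and the cause was not tested. For members in RNA (23 and 6), DESeq2 gave 412 and 154, all 9 libraries in 1 model 62 and 38, the replicate block 0 and 0, sex as a covariate 2 and 0, B6J replicate 2 alone 0 and 0 (chosen after seeing the data), and for Gtpbp2 upper quartile normalization 10 and no filter 17. For Gtpbp2 mutants the sex covariate sets apart B6J replicate 2, the only male, and so is not separate from leaving that library out. Among all transcripts (484 and 99) DESeq2 gave 5372 and 2736, and all 9 libraries 1026 and 641. Between the mutants (0 members) DESeq2 gave 10 members and 223 of all transcripts. For shares (0 and 0), diffSpliceDGE gave 7 and 7, all 9 libraries 9 and 5, and a pseudocount of 0.01 gave 1 in Gtpbp2 mutants. Among all transcripts (4 and 0) diffSpliceDGE gave 138 and 142, and all 9 libraries 39 and 18. Between the mutants (0 members) diffSpliceDGE gave 5 members and 92 of all transcripts. For host genes in RNA (1139 and 686), the block gave 745 in Gtpbp1 mutants, DESeq2 1057 in Gtpbp2 mutants, and B6J replicate 2 alone 521 and 78. For footprints (39 and 130), DESeq2 gave 122 and 219, and in Gtpbp1 mutants no filter gave 63 and the block 14. Leaving out 1 library gave 2 to 9 and 0 to 4 members in RNA, 0 to 0 for shares and between the mutants, 660 to 1203 and 285 to 810 host genes in RNA, and 6 to 79 and 27 to 195 in footprints. Of the 23 and 6 members called, DESeq2 kept 23 and 6, all 9 libraries 22 and 6, and limma on log2 TPM 16 and 3. Over 432 alternatives for single called members, 191 kept the call, 241 missed it and 0 reversed. A missed call need not mean a smaller fold: with the replicate block Mars-205 missed it in Gtpbp1 mutants at the log2 change of 1.41 of the main test. The error of read assignment between transcripts is not in the deposited tables and entered no test.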
